A study of Mus musculus with 8 samples.

Results

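Interleukins are secreted proteins by which immune and tissue cells instruct each other, and each acts through a receptor built from 2 or more chains on the receiving cell. The genes described here are the rows of a mouse liver expression table whose symbols have the form of an interleukin or interleukin receptor name, together with Lif, Osm, Lifr, Osmr and Ebi3, which belong to the same families under other names. The table held 87 of them among its 35204 genes: 43 encode ligands or proteins that bind them, 43 encode receptor chains, and Il4i1 encodes an enzyme named for its induction by interleukin-4. The rule uses names alone, but it was set with earlier results of these data known.

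The livers came from C57BL/6J mice that the labels give as wild type in both groups. The 3 control livers had no treatment. The 5 livers of the other group, called TAZ-CCl4 here, came from mice given TAZS89A by HTVI, understood here as hydrodynamic tail vein injection, and carbon tetrachloride (CCl4) 30 times, 3 times a week over 10 weeks. TAZ, the product of Wwtr1, is a coactivator of TEAD transcription factors, the S89A substitution removes a site through which the Hippo pathway restrains it, and the EF1a promoter that drove it is active in most cell types. Hydrodynamic injection delivers DNA mainly to hepatocytes, and CCl4 injures the hepatocytes that metabolise it. No group had only the construct or only CCl4, so their parts in a difference cannot be told apart. The labels put the controls and the TAZ-CCl4 livers in different sequencing projects, so project and group cannot be told apart either, and they give no age or sex.

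Members of the IL-6 family signal through gp130, the product of Il6st, paired with a chain that sets which ligand is heard: Il6ra for IL-6, Il11ra1 for IL-11, Lifr for LIF, and Osmr for oncostatin M. The chains activate JAK kinases and STAT3, and in hepatocytes IL-6 drives the acute phase response. The IL-1 family (IL-1, IL-18, IL-33, IL-36) instead signals through receptor chains with a shared partner, mostly the product of Il1rap, and the adaptor MyD88. The receptors of IL-2, IL-7, IL-15 and IL-21 share the common gamma chain encoded by Il2rg and are carried mainly by lymphocytes.

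The promoters of 4 genes on which the results turn are printed here: Lif, which had the largest increase, Osmr and Lifr, which lie next to each other among the members on chromosome 15 and moved in opposite directions, and Il33, both of whose promoter windows held a TEAD motif. Each runs 5′ to 3′ on the gene's strand in RefSeq's GRCm38.p6 annotation, from 250 bases before the transcript start to 50 after it. Capitals mark a match on either strand to the AP-1 motif TGANTCA in Lif and Osmr, and to the TEAD motif GGAATG in Il33; Lifr had no match to these or to the STAT motif TTCNNNGAA in this window or in a second one not printed.
Lif, chr11:4257318-4257617, plus strand: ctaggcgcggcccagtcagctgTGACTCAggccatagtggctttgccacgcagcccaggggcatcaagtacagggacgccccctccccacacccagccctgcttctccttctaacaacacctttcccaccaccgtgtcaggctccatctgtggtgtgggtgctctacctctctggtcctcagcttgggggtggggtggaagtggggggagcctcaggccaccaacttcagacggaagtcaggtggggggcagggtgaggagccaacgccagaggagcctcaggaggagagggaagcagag
Osmr, chr15:6874264-6874563, minus strand: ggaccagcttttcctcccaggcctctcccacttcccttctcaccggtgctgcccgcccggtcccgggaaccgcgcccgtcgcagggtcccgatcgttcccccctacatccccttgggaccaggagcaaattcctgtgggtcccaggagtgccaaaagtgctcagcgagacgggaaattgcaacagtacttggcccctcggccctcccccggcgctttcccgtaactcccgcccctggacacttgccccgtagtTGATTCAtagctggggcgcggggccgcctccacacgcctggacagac
Lifr, chr15:7129322-7129621, plus strand: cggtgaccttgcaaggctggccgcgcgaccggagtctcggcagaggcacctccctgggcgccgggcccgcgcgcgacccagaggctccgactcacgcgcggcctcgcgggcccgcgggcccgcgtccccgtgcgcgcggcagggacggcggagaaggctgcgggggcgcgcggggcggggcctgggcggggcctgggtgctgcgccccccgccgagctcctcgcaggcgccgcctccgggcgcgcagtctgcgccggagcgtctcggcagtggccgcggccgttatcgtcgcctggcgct
Il33 first window, chr19:29924863-29925162, plus strand: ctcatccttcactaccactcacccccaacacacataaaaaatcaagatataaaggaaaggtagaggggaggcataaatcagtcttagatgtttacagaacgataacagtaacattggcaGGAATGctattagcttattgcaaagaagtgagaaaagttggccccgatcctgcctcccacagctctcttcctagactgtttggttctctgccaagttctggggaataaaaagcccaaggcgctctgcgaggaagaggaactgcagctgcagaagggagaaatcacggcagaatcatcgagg
Il33 second window, chr19:29945540-29945839, plus strand: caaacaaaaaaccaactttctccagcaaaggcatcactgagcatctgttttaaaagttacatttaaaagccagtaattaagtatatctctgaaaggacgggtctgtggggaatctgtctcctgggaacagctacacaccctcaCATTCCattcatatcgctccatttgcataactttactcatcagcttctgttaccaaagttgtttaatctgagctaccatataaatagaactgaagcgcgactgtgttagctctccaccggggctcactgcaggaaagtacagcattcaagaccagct
The AP-1 match in Lif begins 228 bases before the start and that in Osmr lies just past it, while the TEAD matches in Il33 begin 131 and 107 bases before their starts. The Lifr window was 81.3% G or C, against a median of 52.7% over all windows. The promoter table covered 69 of the 87 members with 85 windows. AP-1 matches stood in 16 of the 85 (18.8%) and in 7.81% of all 32851 windows, TEAD matches in 14 (16.5%) and 14.7%, and STAT matches in 10 (11.8%) and 8.30%. A match is only a run of letters and says nothing of whether a factor was bound.

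The deposited values are normalised counts, whose sum per library ran from 29819996 to 35055251 in the controls and from 12373230 to 14150070 in the TAZ-CCl4 livers. Wwtr1 stood at 280 to 463 normalised counts in the controls and at 4339 to 9021 in the TAZ-CCl4 livers. Differences are given on the log2(value + 1) scale as TAZ-CCl4 minus control with a standard error, and were tested by limma over the 14171 genes with a mean of at least 10, at a Benjamini-Hochberg adjusted p under 0.05. The labels do not say that each library is a separate mouse, so the p-values measure the spread between these libraries. Rescaling every library to the same total moved the median difference of all genes from 0.03 to 1.26, so members whose direction turned under equal totals are named as such. Read depth per library is not given in the sources used here, so the depth behind a value is unknown.

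Of the 87 genes, 46 reached the mean of 10. In the TAZ-CCl4 livers 26 of these were higher and 6 lower, where 32.4% of all genes tested were higher and 29.8% lower. The shares among the interleukin genes were 56.5% and 13.0%, and their median difference was 1.33 against 0.03 for all genes. Since 9 of them (Il7, Il21r, Il2ra, Il1b, Il1r2, Il1rl2, Ebi3, Lif and Osm) reached the mean only through the TAZ-CCl4 livers and so had to differ, the remaining 37 were also counted alone, with 17 higher and 6 lower. Groups did not overlap for 25 higher and 6 lower members, against 30.7% and 29.4% of all genes. At equal totals 35 members were higher and 2 lower, beside 76.3% and 6.39% of all genes; the 26 that had risen were all among the 35, and the 2 were Lifr and Il1rap.

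Ligand and receptor genes were counted apart. Of the 43 ligand or binding protein genes only 14 were tested: 10 rose (Lif, Osm, Il1b, Il1rn, Il33, Il7, Il15, Il16, Il34 and Ebi3), 2 fell (Il18 and Il1f9) and 2 did not pass (Il1a and Il18bp). Of the 43 receptor genes 31 were tested: 16 rose, 4 fell (Lifr, Il1rap, Il11ra1 and Il15ra) and 11 did not pass. The medians were 2.08 for the ligands and 0.56 for the receptors. They are not comparable as they stand, since 5 of the 14 ligands and 4 of the 31 receptors reached the mean only through the TAZ-CCl4 livers. Without those, 5 of 9 ligands rose and 2 fell, with a median of 0.77, and 12 of 27 receptors rose and 4 fell, with a median of 0.44. Of all genes tested, 32.4% were higher and 29.8% lower, the shares beside which these counts and those of each family stand. At equal totals Il18 and Il1f9 no longer passed and the differences of Il11ra1 and Il15ra turned positive.

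**Figure D1:**
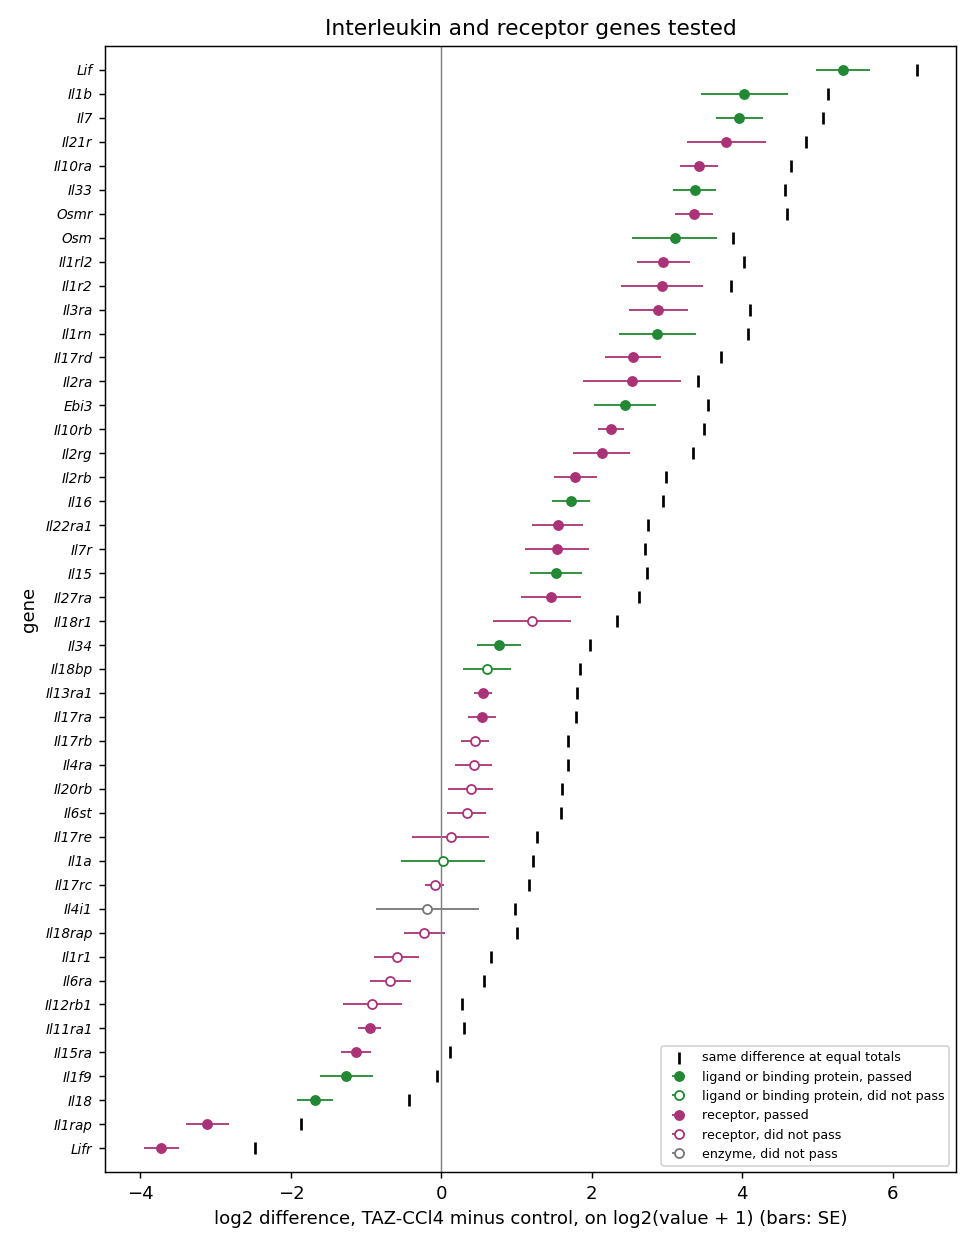
Difference of each of the 46 tested genes between 5 TAZ-CCl4 and 3 control livers on the log2(value + 1) scale, with its SE; filled points passed the test at an adjusted p under 0.05, open ones did not, and the black ticks give the difference after scaling all libraries to one total. Lif is at the top with 5.34 and Lifr at the bottom with -3.72; the ticks of 8 genes whose points lie below 0 (Il11ra1, Il15ra, Il12rb1, Il6ra, Il1r1, Il18rap, Il4i1 and Il17rc) stand above 0.

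Within the IL-6 family, 12 genes were listed and 7 tested. Of the receptor chains Osmr rose, Lifr and Il11ra1 fell, and Il6st and Il6ra did not pass. Both tested ligands, Lif and Osm, also rose, but they were tested only because of their TAZ-CCl4 values. Lif, at chr11:4257557-4272514 on the plus strand in GENCODE M21 (GRCm38), encodes leukemia inhibitory factor, which binds the Lifr chain. In the controls Lif stood at 1.63, 3.12 and 4.13 normalised counts, and in the TAZ-CCl4 livers at 132, 92.5, 211, 210.05 and 157. Every TAZ-CCl4 liver was far above every control, and the mean went from 2.96 ± 1.26 (SD, n = 3) to 161 ± 51.0 normalised counts (SD, n = 5). The log2 difference was 5.34 ± 0.36 (SE), with an adjusted p of 1.67e-06. Osm, the oncostatin M gene, lies 16.5 kb from Lif on chromosome 11 and encodes a cytokine of activated myeloid and T cells. Normalised counts of Osm were 1.89, 2.41 and 0 in the controls and 30.8, 14.5, 11.8, 15.3 and 19.7 in the TAZ-CCl4 livers. The groups did not overlap, with a log2 difference of 3.10 ± 0.57 (SE, adjusted p = 0.000832).

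IL-6, the inducer of the acute phase response, and IL-11 are further ligands of this family, and neither transcript reached the mean needed for the test. The 3 controls had 0, 0 and 0 normalised counts of Il6, and the 5 TAZ-CCl4 livers 0, 1.13, 2.13, 1.99 and 1.19. Il6 was thus listed at 0 in all 3 controls and in 1 TAZ-CCl4 liver, and reached 2.13 at most. For Il11, the controls held 3.78, 2.41 and 1.20 normalised counts and the TAZ-CCl4 livers 6.34, 9.31, 4.90, 5.11 and 4.37. The 5 TAZ-CCl4 values of Il11 lay above the 3 control values, all of them under 10.

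Lifr encodes the chain that binds LIF and pairs with gp130. Lifr values were 14521, 12717 and 12995 normalised counts in the controls, against 1646, 782, 1074, 755 and 1022 in the TAZ-CCl4 livers. It fell in every TAZ-CCl4 liver, from 13411 ± 971 (SD, n = 3) to 1056 ± 359 normalised counts (SD, n = 5). The log2 difference was -3.72 ± 0.23 (SE), with an adjusted p of 1.07e-06, and it was -2.47 at equal totals, where it still passed. Lifr made up 46.5% to 52.4% of the summed normalised counts of all 87 genes in the controls and 5.87% to 10.0% in the TAZ-CCl4 livers. Per kilobase of the longest coding transcript it ranked 1 of the 87 in the controls, at 1389 normalised counts per kilobase, and 15 in the TAZ-CCl4 livers, at 109.

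Osmr, which encodes a receptor chain for oncostatin M, moved the other way. Osmr had 54.8, 69.1 and 58.4 normalised counts in the 3 controls and 1101, 598, 466, 589 and 555 in TAZ-CCl4 replicates 1 to 5. TAZ-CCl4 replicate 1 was the highest, and no TAZ-CCl4 liver came near the controls. The difference was 3.36 ± 0.25 (SE), with an adjusted p of 2.79e-06. The number of Osmr counts for each Lifr count, which does not depend on how libraries are scaled against each other, was 0.00377 to 0.00544 in the controls and 0.434 to 0.780 in the TAZ-CCl4 livers. Per kilobase Osmr stood at 11.1 in the controls and 121 in the TAZ-CCl4 livers, where its range of 84.9 to 201 overlapped the 78.2 to 170 of Lifr. In the same annotation the genes are 216 kb apart, Osmr at chr15:6813577-6874969 on the minus strand and Lifr at chr15:7090614-7197489 on the plus strand.

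Il6st, the gp130 gene, ranked 8 of the 87 per kilobase in the controls and 3 in the TAZ-CCl4 livers. In the controls Il6st stood at 1419.7, 1823 and 1607 normalised counts, and in the TAZ-CCl4 livers at 2934, 1629, 2385, 1234 and 2469.9. TAZ-CCl4 replicates 2 and 4 lay within or below the control range and the other 3 above it, so the groups overlapped. The difference was 0.34 ± 0.26 (SE), with an adjusted p of 0.276, which did not pass, though it was 1.59 and passed at equal totals, and passed without TAZ-CCl4 replicate 4 (0.52) and after quantile normalisation (0.84), which gives every library the same distribution of values. Il6ra encodes the chain that binds IL-6 itself. Normalised counts of Il6ra were 913, 1245 and 988 in the controls and 754, 921, 692, 349 and 688 in the TAZ-CCl4 livers. Only replicate 2 of the TAZ-CCl4 livers lay inside the control range. The difference was -0.68 ± 0.27 (SE), with an adjusted p of 0.0501, just short of the threshold; it passed at -0.80 without TAZ-CCl4 replicate 2 and at -0.45 without replicate 4, and was 0.57 at equal totals. Il11ra1, the IL-11 receptor gene, had 834 ± 117 (SD, n = 3) normalised counts in the controls and 431 ± 63.5 (SD, n = 5) in the TAZ-CCl4 livers, with a log2 difference of -0.95 ± 0.16 (SE, adjusted p = 0.000407), turning to 0.30 at equal totals. It shares 57.7% of its 31-base words with other genes, most often the near copy Gm13305, so its counts are uncertain.

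**Figure D2:**
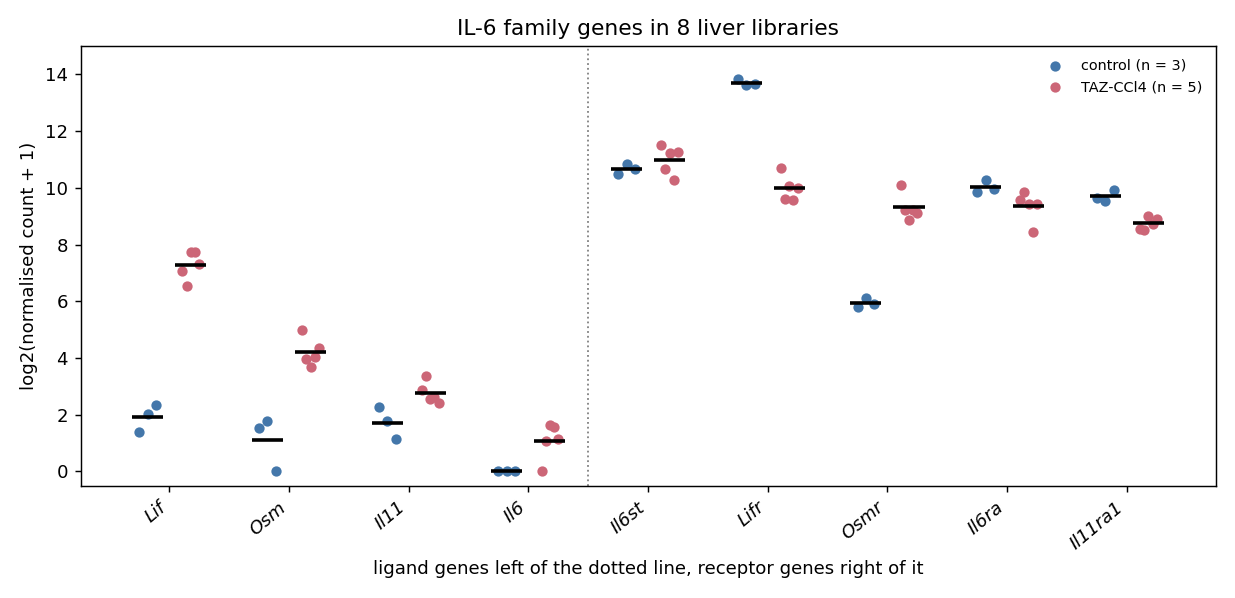
Level of 9 IL-6 family genes in each of the 3 control (blue) and 5 TAZ-CCl4 (red) livers as log2(normalised count + 1), with the mean of each group as a line; ligand genes are left of the dotted line and receptor genes right of it. Lifr is lower and Osmr, Lif and Osm are higher in every TAZ-CCl4 liver; the differences of Il11ra1 and Il6ra, below 0 here, are above 0 at equal totals, where neither passed.

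A hepatocyte marker list was set beside these genes. Of its 8 markers 7 fell and 1 did not pass, against 4 lower at equal totals, where Hnf4a turned to 0.29, and its summed level was 1888021 to 2401780 normalised counts in the controls and 666130 to 960162 in the TAZ-CCl4 livers. All 6 cholangiocyte markers rose, with sums of 1867 to 2551 in the controls and 33608 to 119830 in the TAZ-CCl4 livers. Spp1 held most of these sums, which were 263 to 336 and 1904 to 6873 without it. Cftr was tested only because of its TAZ-CCl4 values, and the other 5 rose too. Of the stellate cell and myofibroblast markers 4 of 8 rose, with sums of 1928 to 3480 and 5659 to 8043. Of 7 sinusoidal endothelial markers 2 rose and 3 fell, with overlapping sums of 2298 to 4174 and 3386 to 4082. At equal totals 4 of them rose and 0 fell, beside 76.3% and 6.39% of all genes. In whole liver, fewer cells of a type and less RNA per cell cannot be told apart, and the part of these shifts in the IL-6 family differences was not tested.

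IL-1 family genes numbered 20, of which 13 were tested; 5 rose, 3 fell and 5 did not pass. Of those that rose, Il1b, Il1r2 and Il1rl2 were tested only because of their TAZ-CCl4 values, and among the other 10 genes 2 rose and 3 fell, beside 32.4% and 29.8% of all genes. The ligand genes Il1b and Il33 and the antagonist gene Il1rn rose, Il18 and Il1f9 fell, and the shared receptor chain Il1rap fell. Il1b encodes IL-1 beta, an inflammatory cytokine made chiefly by myeloid cells and cut into its active form by caspase-1. The 3 controls had 5.01, 10.7 and 5.85 normalised counts of Il1b, and the 5 TAZ-CCl4 livers 277, 35.0, 152, 121 and 182. Replicate 2 was the lowest of the TAZ-CCl4 livers and still above every control. The difference was 4.03 ± 0.58 (SE), with an adjusted p of 0.000169. Il1a, the gene of the related IL-1 alpha, had overlapping groups with means of 33.1 and 33.9, and a log2 difference of 0.02 ± 0.56 (SE, adjusted p = 0.972).

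Il1rn encodes the IL-1 receptor antagonist, which occupies the receptor without signalling. For Il1rn, the controls held 22.7, 16.2 and 25.0 normalised counts and the TAZ-CCl4 livers 102, 56.2, 235, 245 and 315. It rose without overlap, with a log2 difference of 2.87 ± 0.52 (SE, adjusted p = 0.000741). The count of Il1rn for each Il1b count ranged from 1.52 to 4.53 in the controls and from 0.368 to 2.02 in the TAZ-CCl4 livers, so the ranges overlapped. Il1r2, which encodes a decoy receptor for IL-1, rose from 2.08 ± 0.690 (SD, n = 3) to 25.1 ± 13.5 normalised counts (SD, n = 5) with a log2 difference of 2.93 ± 0.54 (SE, adjusted p = 0.000871). Il1r2 was tested only because of its TAZ-CCl4 values.

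Il33, at chr19:29925114-29960718 on the plus strand, encodes an alarmin that is stored in the nucleus of barrier and stromal cells and released on injury. Il33 values were 23.0, 24.3 and 20.7 normalised counts in the controls, against 282, 133, 269.99, 292 and 285 in the TAZ-CCl4 livers. Replicate 2 stood apart at the low end of the TAZ-CCl4 group, and the other 4 lay between 270 and 292. The difference was 3.37 ± 0.28 (SE), with an adjusted p of 4.71e-06. Its receptor chain ST2 is encoded by Il1rl1, which fell short of the mean of 10. Il1rl1 had 1.70, 5.05 and 5.41 normalised counts in the 3 controls and 7.36, 16.8, 5.91, 18.0 and 14.0 in TAZ-CCl4 replicates 1 to 5. All 5 TAZ-CCl4 values of Il1rl1 were above the controls, the lowest of them by under 1 normalised count. Markers of type 2 innate lymphoid cells, which carry ST2, summed to 1236 to 1578 and 1403 to 1774, but Rora and Hes1, expressed in many cell types, held nearly all of that sum; they were the 2 tested of 5, with 1 higher, and Klrg1 was listed at 0 in all controls. Of 7 mast cell and basophil markers 6 were listed at 0 in all controls and the 1 tested did not pass, with sums of 59.1 to 90.003 and 76.6 to 161.

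Il18 encodes another ligand activated by caspase-1. In the controls Il18 stood at 269.9, 287 and 275 normalised counts, and in the TAZ-CCl4 livers at 65.3, 62.5, 95.5, 124 and 96.7. No TAZ-CCl4 liver reached the control level. The difference was -1.68 ± 0.24 (SE), with an adjusted p of 0.000182, and it was -0.44 at equal totals, where it did not pass. The Il33 count for each Il18 count was 0.0754 to 0.0853 in the controls and 2.13 to 4.32 in the TAZ-CCl4 livers. Il18bp, which encodes a secreted protein that binds IL-18, did not pass, with a log2 difference of 0.61 ± 0.32 (SE, adjusted p = 0.119), but did at 0.79 without TAZ-CCl4 replicate 2. Il1f9, the gene of IL-36 gamma, went from 44.8 ± 3.51 (SD, n = 3) to 18.9 ± 6.76 normalised counts (SD, n = 5), with a log2 difference of -1.27 ± 0.35 (SE, adjusted p = 0.00961) and -0.06 at equal totals, where it did not pass. The IL-36 receptor gene Il1rl2 rose from 5.10 ± 2.03 (SD, n = 3) to 44.4 ± 5.64 normalised counts (SD, n = 5), with a log2 difference of 2.95 ± 0.35 (SE, adjusted p = 5.03e-05). Il1rl2 was tested only because of its TAZ-CCl4 values.

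Il1rap, at chr16:26581704-26730117 on the plus strand, encodes the accessory chain that the IL-1, IL-33 and IL-36 receptors share. Normalised counts of Il1rap were 3927, 4607 and 4299 in the controls and 253, 560.2, 704, 644 and 451 in the TAZ-CCl4 livers. It fell in all 5 TAZ-CCl4 livers, most in replicate 1. The difference was -3.11 ± 0.29 (SE), with an adjusted p of 9.11e-06, and at equal totals it was -1.86 and still passed. Il1r1 encodes the chain that binds IL-1 and signals together with that partner. The 3 controls had 1579, 1303 and 1852 normalised counts of Il1r1, and the 5 TAZ-CCl4 livers 2036, 1124, 737, 926 and 760.4. TAZ-CCl4 replicate 1 was above every control and the other 4 below them all, and a log2 difference of -0.59 ± 0.30 (SE, adjusted p = 0.11) did not pass; without that replicate it was -0.84 and passed, and at equal totals it was 0.66. For each Il1r1 count there were 2.32 to 3.54 Il1rap counts in the controls and 0.124 to 0.956 in the TAZ-CCl4 livers. Among the IL-18 receptor chains, Il18r1 and Il18rap did not pass, with a difference of 1.21 ± 0.52 (SE) and a difference of -0.23 ± 0.27 (SE), the latter 1.002 at equal totals but -1.10 after quantile normalisation, passing in both; Il18r1 passed without control replicate 3, at 1.74, or TAZ-CCl4 replicate 1, at 1.43.

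**Figure D3:**
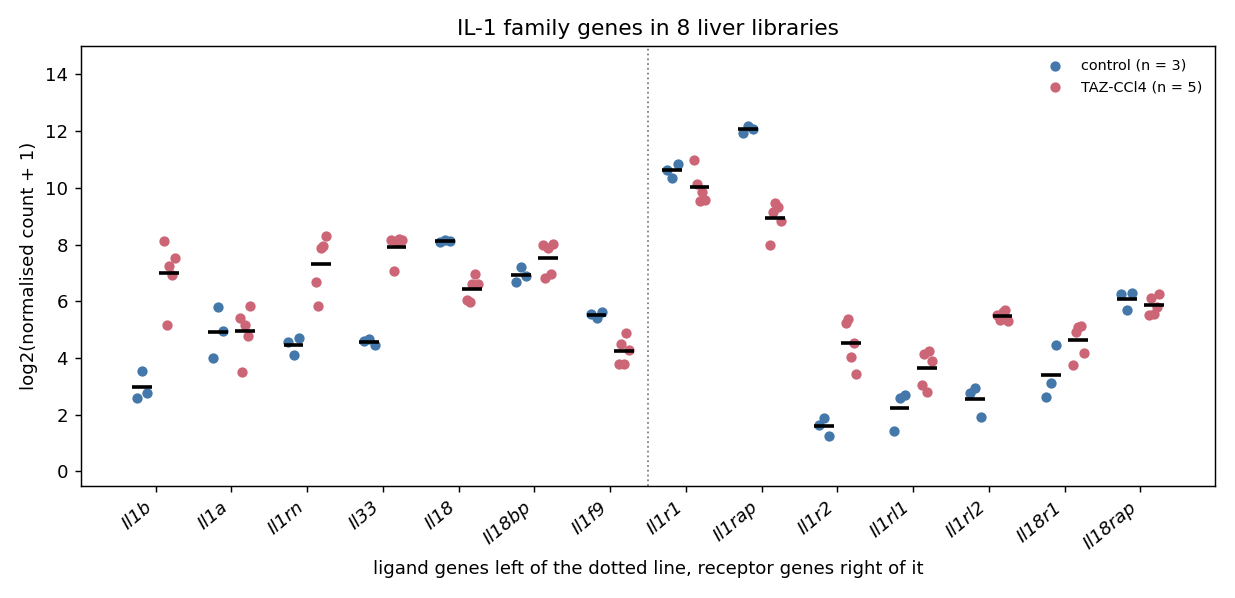
Level of 14 IL-1 family genes in each of the 3 control (blue) and 5 TAZ-CCl4 (red) livers as log2(normalised count + 1), with the mean of each group as a line; ligand and binding protein genes are left of the dotted line and receptor genes right of it. Il1b, Il1rn and Il33 are higher and Il1rap is lower in every TAZ-CCl4 liver, while Il18 and Il1f9, also lower here, did not pass at equal totals and Il1r1 turned positive there.

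Marker lists of myeloid cell types were set beside the IL-1 family genes. All 8 monocyte-derived macrophage markers rose, with a summed level of 716 to 1102 in the controls and 10005 to 17096 in the TAZ-CCl4 livers. The 4 neutrophil markers tested of 7 rose, 2 of them tested only because of their TAZ-CCl4 values, with sums of 57.03 to 64.3 and 376 to 696, and Ly6g and Mpo were listed at 0 in all controls. Kupffer cell markers, those of the resident macrophage, summed to 8578 to 12345 in the controls and 243 to 3271 in the TAZ-CCl4 livers, where 2 of 7 fell and 5 did not pass. The gene C6 held most of the control sum; without it the ranges were 1104 to 2160 and 156 to 2850 and overlapped. Dendritic cell markers summed to 185 to 214 and 358 to 709, with 2 of 6 tested higher, 1 of which was tested only because of its TAZ-CCl4 values. Without Itgax, the largest of them, the ranges were 150 to 200 and 155 to 305 and overlapped. The part of these cell types in the IL-1 family differences was not tested.

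The common gamma chain group, with the IL-4 and IL-13 receptors added, had 17 genes, 10 of them tested: 8 rose, Il15ra fell and Il4ra did not pass. Il7 encodes a survival factor for lymphocytes that stromal cells make. For Il7, the controls held 7.52, 6.44 and 4.78 normalised counts and the TAZ-CCl4 livers 81.4, 79.9, 134, 152 and 125. It, like Il21r and Il2ra in this group, was tested only because of its TAZ-CCl4 values. Without the 3, 5 of 7 rose and 1 fell, beside 32.4% and 29.8% of all genes. Il7 rose in every TAZ-CCl4 liver with a log2 difference of 3.96 ± 0.32 (SE, adjusted p = 3.73e-06). Its receptor chain Il7r went from 17.3 ± 9.56 (SD, n = 3) to 48.7 ± 15.1 normalised counts (SD, n = 5), with a log2 difference of 1.54 ± 0.42 (SE, adjusted p = 0.00902), but 0.46 and no call after quantile normalisation.

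IL-15 sustains NK cells and memory T cells, and is handed to them by cells that hold it on the Il15ra chain. Il15 values were 16.5, 38.3 and 23.2 normalised counts in the controls, against 44.4, 73.9, 90.8, 73.5 and 91.8 in the TAZ-CCl4 livers. Il15 rose with a log2 difference of 1.53 ± 0.35 (SE, adjusted p = 0.0031), but at 0.50 it did not pass after quantile normalisation. Il15ra had 1129, 1159 and 1222 normalised counts in the 3 controls and 435, 803, 595, 442 and 474 in TAZ-CCl4 replicates 1 to 5. Il15ra fell in all 5 TAZ-CCl4 livers, with a log2 difference of -1.13 ± 0.20 (SE, adjusted p = 0.000662), but was 0.12 at equal totals, the opposite sign. The Il15ra gene lies 12.1 kb from Il2ra, which rose, on chromosome 2. The Il15 count for each Il15ra count was 0.0146 to 0.0330 in the controls and 0.0921 to 0.194 in the TAZ-CCl4 livers.

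Il2rg, the common gamma chain gene itself, was higher in each TAZ-CCl4 liver than in any control. In the controls Il2rg stood at 34.2, 36.5 and 27.5 normalised counts, and in the TAZ-CCl4 livers at 86.9, 83.4, 247, 204 and 182. Replicates 1 and 2 were well below the other 3, and across the groups there was a log2 difference of 2.13 ± 0.38 (SE, adjusted p = 0.000716). It shares 28.7% of its 31-base words with other genes, most often the overlapping model Gm20489, so its counts are uncertain. Il2rb encodes a chain that the IL-2 and IL-15 receptors share. Normalised counts of Il2rb were 28.1, 29.2 and 23.4 in the controls and 122, 57.9, 91.3, 102 and 116 in the TAZ-CCl4 livers. The groups stood apart, with a log2 difference of 1.78 ± 0.28 (SE, adjusted p = 0.000342). Il2ra, the high-affinity IL-2 receptor chain found on regulatory and activated T cells, rose from 3.67 ± 3.62 (SD, n = 3) to 19.1 ± 4.23 normalised counts (SD, n = 5), with a log2 difference of 2.53 ± 0.65 (SE, adjusted p = 0.0065), but did not pass after quantile normalisation (1.50). Il2ra was tested only because of its TAZ-CCl4 values.

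Il21r encodes the receptor for IL-21, a cytokine of helper T cells that acts on B cells, T cells and NK cells. The 3 controls had 1.80, 14.9 and 9.41 normalised counts of Il21r, and the 5 TAZ-CCl4 livers 104, 65.8, 125, 106 and 148. It rose with a log2 difference of 3.79 ± 0.52 (SE, adjusted p = 0.000128), but was tested only because of its TAZ-CCl4 values. Il4ra and Il13ra1 form the receptor through which IL-4 and IL-13 act on hepatocytes and other tissue cells. Il13ra1 rose from 553 ± 8.07 (SD, n = 3) to 818 ± 81.1 normalised counts (SD, n = 5), with a log2 difference of 0.56 ± 0.12 (SE, adjusted p = 0.00246), and Il4ra did not pass with a log2 difference of 0.43 ± 0.24 (SE, adjusted p = 0.146), though it did at 0.62 without TAZ-CCl4 replicate 4. Il4i1, the amino acid oxidase gene, did not pass either, with a difference of -0.18 ± 0.69 (SE) and 0.98 at equal totals. It shares 80.5% of its 31-base words with other genes, most often Tbc1d17.

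Lymphocyte marker lists were set beside these receptor genes. Of 8 T cell markers 5 rose and 3 did not pass, with sums of 88.9 to 121 and 177 to 454. Of the 5 that rose, 4 were tested only because of their TAZ-CCl4 values. NK cell and type 1 innate lymphoid cell markers summed to 19.3 to 33.6 and 44.1 to 107, but the 2 tested of 7, Klrb1c and Gzmb, reached the mean only through the TAZ-CCl4 livers, so no count is read from them. For B cells 1 of 6 fell and 5 did not pass, with overlapping sums of 94.1 to 227 and 73.0 to 202. At equal totals 3 B cell markers rose and 0 fell, beside 76.3% and 6.39% of all genes. The part of lymphocyte numbers in the receptor differences was not tested.

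Of the IL-10 family, 4 receptor genes were tested and 3 rose, beside 32.4% of all genes. Il10ra encodes the IL-10 binding chain carried by leukocytes. For Il10ra, the controls held 38.9, 58.2 and 30.9 normalised counts and the TAZ-CCl4 livers 409, 332, 574, 446 and 557. All TAZ-CCl4 livers were above all controls, with a log2 difference of 3.43 ± 0.25 (SE, adjusted p = 2.28e-06). Il10rb encodes the broadly expressed partner chain, also used by the receptors of IL-22 and interferon lambda. Il10rb values were 147, 174 and 149 normalised counts in the controls, against 679.8, 639, 748, 1042 and 688 in the TAZ-CCl4 livers. The rise was seen in every liver and was highest in replicate 4, with a log2 difference of 2.25 ± 0.18 (SE, adjusted p = 3.17e-06). Per kilobase Il10rb ranked 13 of the 87 genes in the controls, at 84.6 normalised counts per kilobase, and 1 in the TAZ-CCl4 livers, at 411. However, it shares 14.9% of its 31-base words with other genes, most often the overlapping model Gm21970.

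Il22ra1 encodes the chain that makes epithelial cells, hepatocytes among them, responsive to IL-22. Il22ra1 had 18.9, 30.2 and 28.8 normalised counts in the 3 controls and 70.7, 131, 87.3, 50.4 and 62.2 in TAZ-CCl4 replicates 1 to 5. It rose without overlap, with a log2 difference of 1.54 ± 0.34 (SE, adjusted p = 0.00262), but at 0.52 it did not pass after quantile normalisation. Il20rb, a chain of the IL-20 receptors, did not pass with a log2 difference of 0.39 ± 0.30 (SE, adjusted p = 0.284). The ligand gene Il10 reached 6.84 normalised counts at most and Il22 was listed at 0 throughout.

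The IL-12 group had 9 genes and 3 tested. Ebi3, whose product is a subunit of IL-27 and IL-35 and which was tested only because of its TAZ-CCl4 values, rose from 6.71 ± 0.899 (SD, n = 3) to 43.9 ± 18.1 normalised counts (SD, n = 5), with a log2 difference of 2.44 ± 0.42 (SE, adjusted p = 0.000541). Of its 31-base words 19.0% are shared with other genes, most often the antisense Gm16712. Il27ra, the IL-27 receptor gene, rose from 14.7 ± 4.47 (SD, n = 3) to 43.3 ± 14.4 normalised counts (SD, n = 5), with a log2 difference of 1.46 ± 0.39 (SE, adjusted p = 0.00848), but did not pass after quantile normalisation (0.38). Il12rb1, a chain shared by the IL-12 and IL-23 receptors, did not pass with a log2 difference of -0.92 ± 0.39 (SE, adjusted p = 0.0627), passed at -1.24 without control replicate 1 and at -1.95 after quantile normalisation, and was 0.28 at equal totals. Il23a, the gene of the IL-23 specific subunit, missed the mean of 10. In the controls Il23a stood at 1.68, 5.36 and 4.71 normalised counts, and in the TAZ-CCl4 livers at 10.7, 9.30, 4.87, 21.2 and 16.6. The lowest TAZ-CCl4 value of Il23a lay inside the control range, so the groups overlapped.

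Receptor chains alone were tested in the IL-17 family, with 5 of its 11 genes. Of these 2 rose, beside 32.4% of all genes, and 3 did not pass. Il17rd encodes a receptor chain also known as Sef, which restrains fibroblast growth factor signalling. Normalised counts of Il17rd were 19.3, 15.7 and 8.89 in the controls and 65.3, 143, 56.1, 108 and 84.3 in the TAZ-CCl4 livers. It was higher in every TAZ-CCl4 liver, with a log2 difference of 2.54 ± 0.37 (SE, adjusted p = 0.000196). Il17ra, the chain that most IL-17 receptors share, went from 328 ± 57.04 (SD, n = 3) to 480.1 ± 97.3 normalised counts (SD, n = 5), with a log2 difference of 0.54 ± 0.19 (SE, adjusted p = 0.0284), and no longer passed without control replicate 1 (0.57) or 3 (0.40) or TAZ-CCl4 replicate 3 (0.52). Il17rb, Il17rc and Il17re did not pass, with a difference of 0.44 ± 0.19 (SE), a difference of -0.09 ± 0.13 (SE) and a difference of 0.12 ± 0.51 (SE); that of Il17rc was 1.16 at equal totals, and Il17rb passed at 0.54 without TAZ-CCl4 replicate 1. The ligand genes Il17b, Il17c and Il25 were listed at 0 in all libraries.

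Il3ra, the IL-3 receptor chain, was the gene tested among those that use the common beta chain. The 3 controls had 23.7, 32.5 and 53.6 normalised counts of Il3ra, and the 5 TAZ-CCl4 livers 177, 238, 217, 581 and 234. Replicate 4 stood far above the other TAZ-CCl4 livers, the groups did not overlap, and the rise came with a log2 difference of 2.89 ± 0.39 (SE, adjusted p = 0.000109). Csf2rb, its signalling partner, went from 94.1 to 362. Il16 encodes a chemoattractant for CD4+ cells. For Il16, the controls held 45.8, 66.0 and 52.2 normalised counts and the TAZ-CCl4 livers 125, 161, 249, 175 and 217. Its groups did not overlap, with a log2 difference of 1.72 ± 0.25 (SE, adjusted p = 0.000195). Il16 shares 16.6% of its 31-base words with other genes, most often Stard5.

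Il34 encodes a ligand of the receptor Csf1r, by which macrophages are maintained. Il34 values were 21.7, 34.7 and 25.9 normalised counts in the controls, against 47.2, 31.9, 49.7, 52.4 and 55.5 in the TAZ-CCl4 livers. Replicate 2 lay inside the control range and the other 4 above it. The difference was 0.77 ± 0.29 (SE), with an adjusted p of 0.0424, a call that did not hold without control replicate 1 (0.62) or 3 (0.74), or without TAZ-CCl4 replicate 1 (0.76), 3 (0.74), 4 (0.73) or 5 (0.70); after quantile normalisation it was -0.29. Its receptor gene Csf1r went from 275 to 4091, a difference of 3.87, alongside the macrophage markers described above.

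**Figure D4:**
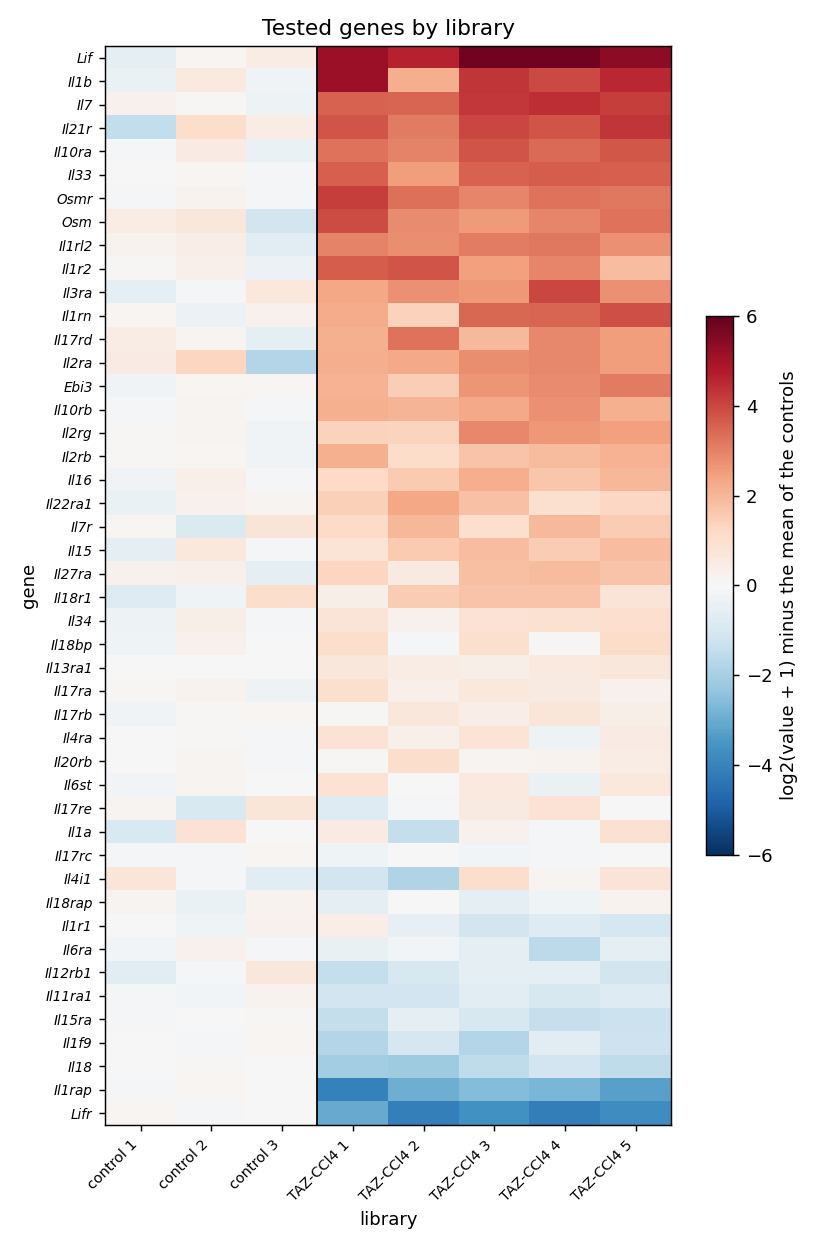
Level of each of the 46 tested genes in each of the 8 libraries as the difference of log2(value + 1) from the mean of the 3 controls, ordered by the difference between groups. Lif, Il1b, Il7 and Il21r are red and Lifr and Il1rap blue in all 5 TAZ-CCl4 livers; Il17rc, Il4i1, Il18rap, Il1r1, Il6ra, Il12rb1, Il11ra1 and Il15ra, lower here on average, turn positive at equal totals.

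Of the 41 genes below the mean of 10, 29 encode ligands and 12 receptors, and 13 ligand genes were listed at 0 in every library (Il3, Il9, Il1f10, Il1f5, Il1f6, Il1f8, Il20, Il22, Il24, Il17b, Il17c, Il25 and Il31). No value among the 41 was above 21.2. Among the 28 with any value, the TAZ-CCl4 livers were all above the controls for Il1rl1, Il27 and Il11, and all below them for Il17f. The share of all genes below the mean of 10 that separate in this way was not counted, so nothing is read from these 28. Just inside the filter were Osm, with a mean of 12.0 over the 8 libraries, and Il2ra, with 13.3; just outside were Il23a and Il1rl1, both at 9.3.

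The TAZ-CCl4 livers differed among themselves in which genes they led. Over the 46 tested genes, replicate 2 was the lowest of the 5 for 18 and replicate 1 for 14, while replicate 5 was lowest for 3. Replicate 4 was the highest for 13, replicate 5 for 10 and replicate 1 for 9, among them Lifr, Osmr, Il6st, Il1b and Osm.

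The kinases, STAT factors and inhibitors that act below these receptors were taken as a further list. In a JAK-STAT list of 26 genes, all tested, 10 rose, 3 fell and 13 passed in neither direction. The 38.5% higher is near the 32.4% of all genes, and the 11.5% lower stood beside 29.8%. Of the 10, Stat4 and Socs1 reached the mean only through the TAZ-CCl4 livers, and without them 8 of 24 rose. At equal totals all 26 were higher, the 3 that had fallen (Stat2, Stat5b and Socs4) included, beside 76.3% of all genes. The median was 0.33, against 0.03 for all genes. Socs3, a STAT3 target that blocks gp130 signalling, went from 318 ± 79.8 (SD, n = 3) to 1033 ± 656 (SD, n = 5), a difference of 1.50, and was highest in replicate 1 at 2026. Socs5, another inhibitor of cytokine signalling, rose from 66.0 to 259, a difference of 1.95. Stat5b, used by growth hormone and IL-2 family receptors, had a difference of -0.50, and Stat2, used by interferon receptors, one of -0.57; at equal totals they were 0.75 and 0.69.

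In a list of 22 genes of IL-1 and IL-17 signalling, 10 rose (45.5%, beside 32.4% of all genes), 4 fell (18.2%, beside 29.8%) and 8 passed in neither direction. The median was 0.41. At equal totals 20 rose and 0 fell, beside 76.3% and 6.39% of all genes. Of those that had fallen, Irak2 was then at 0.89 and Tollip at 0.78. Irak3, which restrains IL-1 and Toll-like receptor signalling in myeloid cells, rose from 12.0 to 102, a difference of 2.87. Nlrp3, the sensor of the inflammasome that activates caspase-1, rose from 8.60 to 68.0, a difference of 2.83. It reached the mean only through the TAZ-CCl4 livers and so had to differ, and without it 9 of 21 genes rose. Peli2, a ubiquitin ligase of this pathway, fell from 378 to 144, a difference of -1.40 that was -0.15 at equal totals, and Map3k7, the TAK1 kinase gene, had -0.57, which turned to 0.68.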

How the data were processed

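Poly-A RNA of pieces of 8 livers was sequenced as paired 100-base reads with TruSeq libraries on a NovaSeq, per the labels' protocols. The authors deposited 1 table of normalised counts, a scaled signal per gene that is not whole reads; its name points to kallisto quantification and DESeq2 scaling, and the submitters' processing notes name DESeq2 and mm10. Settings and versions were not given in the sources used here. Only whole-gene values were used, with no count model. Values were log2-transformed with a pseudocount of 1, genes with a mean of at least 10 were kept, and the 2 groups were compared with limma 3.58.1 (R 4.3.3), trended prior variance and Benjamini-Hochberg adjustment; the code was tested on simulated data. Gene positions and shared 31-base words came from GENCODE M21, promoters from RefSeq (GRCm38.p6). All 46 tested genes are named; values in every library are given for those that passed with a difference of at least 1 and a group mean of at least 50, and for 12 genes whatever their values. The genes and lists were chosen with earlier results of these data known.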

Additional observations from a re-analysis of the deposited data

Results flagged for a closer look

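In 4 of the 46 tested genes, 1 TAZ-CCl4 liver stood apart from the other 4 by Dixon's criterion at the 95% level; chance alone marks about 1 in 20 groups. Replicate 4 was high for Il10rb (1042 normalised counts) and for Il3ra (581). Replicate 1 was high for Osmr (1101). Replicate 2 was low for Il33 (133).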

How the results depend on the processing

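At every setting that tested them 19 members stayed higher and 2, Lifr and Il1rap, stayed lower. Among the 19, Ebi3, Il1b, Il1r2, Il1rl2, Il21r, Il7, Lif and Osm reached the mean only through the TAZ-CCl4 livers and had to differ. The count of lower members fell from 6 to 2 at equal totals, and to 3 when Mup and mitochondrial genes were kept out of those totals; that of ligands from 2 to 0 and 1 (1 also with a mean of at least 50), and that of receptors from 4 to 2 and 2. With 1 library left out, 24 to 27 members were higher and 6 to 7 lower, beside 4015 to 4586 and 3600 to 4269 of all genes tested. JAK-STAT genes higher numbered 26 and 24 at these totals, and lower 0 and 0, 1 at equal upper quartiles and 1 to 4 with 1 library left out (1 without control replicate 1). IL-1 and IL-17 genes higher numbered 20 and 19, and lower 0 and 1, 2 at equal upper quartiles and 2 to 4 with 1 library left out (2 without control replicate 2). Of all 14171 genes tested, 10810 and 8914 were higher at the same totals, and 906 and 1512 lower. With a replicate block 22 members were higher and 6 lower, JAK-STAT genes lower were 1, and IL-1 and IL-17 genes higher 6 and lower 2. Of all 14171 genes tested, 3791 were higher and 3575 lower with that block. The replicate numbers are not a pairing, since the correlations of same-numbered deviations were -0.067, -0.064 and -0.088.

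Signs turned at equal totals for Il11ra1 (0.30), Il12rb1 (0.28), Il15ra (0.12), Il17rc (1.16), Il18rap (1.002), Il1r1 (0.66), Il4i1 (0.98) and Il6ra (0.57), and with Mup and mitochondrial genes kept out for Il17rc (0.74), Il18rap (0.59), Il1r1 (0.24), Il4i1 (0.59) and Il6ra (0.15). At equal upper quartiles Il17rc was 0.11 and Il4i1 0.0017. Quantile normalisation gave Il17re -1.02, Il1a -1.04, Il20rb -0.67 and Il34 -0.29, left Il15, Il22ra1, Il27ra, Il2ra and Il7r without a call, and added calls of Il12rb1 (-1.95), Il18rap (-1.10) and Il6st (0.84), for 21 higher and 8 lower in all. Of all 14171 genes tested, 3941 were then higher and 4227 lower. The replicate block gave Il17re -0.092 and Il1a -0.22, ended the calls of Il17ra (0.63), Il27ra (1.22), Il2ra (2.42), Il7r (1.40) and Il34 (0.63), and added that of Il4ra (0.65). With 1 library left out, Il17re ranged from -0.33 to 0.49, Il1a from -0.43 to 0.46 and Il4i1 from -0.52 to 0.22. The cause was not tested. With no filter on low values 74 members were tested, of which 28 were higher and 6 lower. Of all 22625 genes tested at that setting, 4958 were higher and 4383 lower.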
